A study of Oryza sativa with 8 samples.

Results

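Sucrose, the sugar that plants move between organs, is split outside the cell by cell wall invertases and inside it by sucrose synthases, and it is the acceptor from which raffinose is built. Trehalose 6-phosphate, the substrate of the trehalose phosphatases, is a signal of sucrose supply in plants. Raffinose builds up in maturing seeds and in tissue short of water. The genes described here are 5 enzymes of these steps: the cell wall invertases CIN2 and CIN4, the sucrose synthase SUS4, the raffinose synthase RFS and the trehalose phosphatase TPP1. They were found by symbol or synonym in the rice gene annotation and are measured by 6 probes, since SUS4 has 2 (6165 and 9703) and the others have 1 each. These are 5 of the 15641 genes on the array that the probe annotation names singly. They were chosen with their values on these same arrays known, so their values are given as a description. How many of them the fit across all probes called is given only as counts, and nothing is read from it.

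The array carries 22575 features and was hybridised 8 times with treated and untreated callus in 2 dyes. The callus came from the scutellum (the part of the seed embryo that faces the starchy store) of the japonica variety Nipponbare. It was grown for 30 d on medium with 10 µM of the synthetic auxin 2,4-D and then kept for 3 d with the hormone. The hormone was 50 µM abscisic acid (ABA, a hormone of seed maturation and drought) on 4 arrays or 50 µM gibberellin (GA, which drives elongation growth and the start of germination) on the other 4. Untreated callus is the other dye on every array, and the labels do not say whether its RNA was shared between arrays or whether the cultures were separate, so the spread between arrays may be technical. In the labels ABA carries the keyword of dormancy, and GA that of germination. ABA arrays 24 and 20 and GA arrays 04 and 05 have the treated sample in Cy3, and ABA arrays 19 and 23 and GA arrays 07 and 08 have it in Cy5. The array numbers of the hormones do not overlap, so a batch of arrays and the hormone cannot be told apart.

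All values below are log2 of treated over untreated, with 1 unit a doubling of the ratio, and errors are the SD over 4 arrays with the dye bias of the probe included. The direction rests on reading the table as Cy5 over Cy3 on every array, whereas the labels describe treated over untreated. The deposited log10 values of RFS show why: they were −0.383 and −0.428 on ABA arrays 24 and 20 and 0.424 and 0.362 on arrays 19 and 23. The size was alike and the sign followed the dye. CIN2 did the same under GA, at −0.352 and −0.340 on arrays 04 and 05 and at 0.326 and 0.346 on arrays 07 and 08. Over all annotated probes, the deposited values of opposite dye orientations had correlations from −0.60 to −0.51 within ABA and from −0.82 to −0.70 within GA. The sign was therefore turned wherever Cy3 held the treated sample. The dyes show that the sign turns with the orientation, but which dye is on top of the ratio was taken from the scanner maker's usual format, so the direction is likely and not certain, and every "higher" or "lower" below rests on it. With the other dye on top every sign, every count of rises and falls and every rank from the highest or lowest value would change places. The log base is also taken from that format, and folds depend on it. Ratios carry no level, so neither the abundance of the genes nor the make-up of the callus can be read from them.

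**Figure D1:**
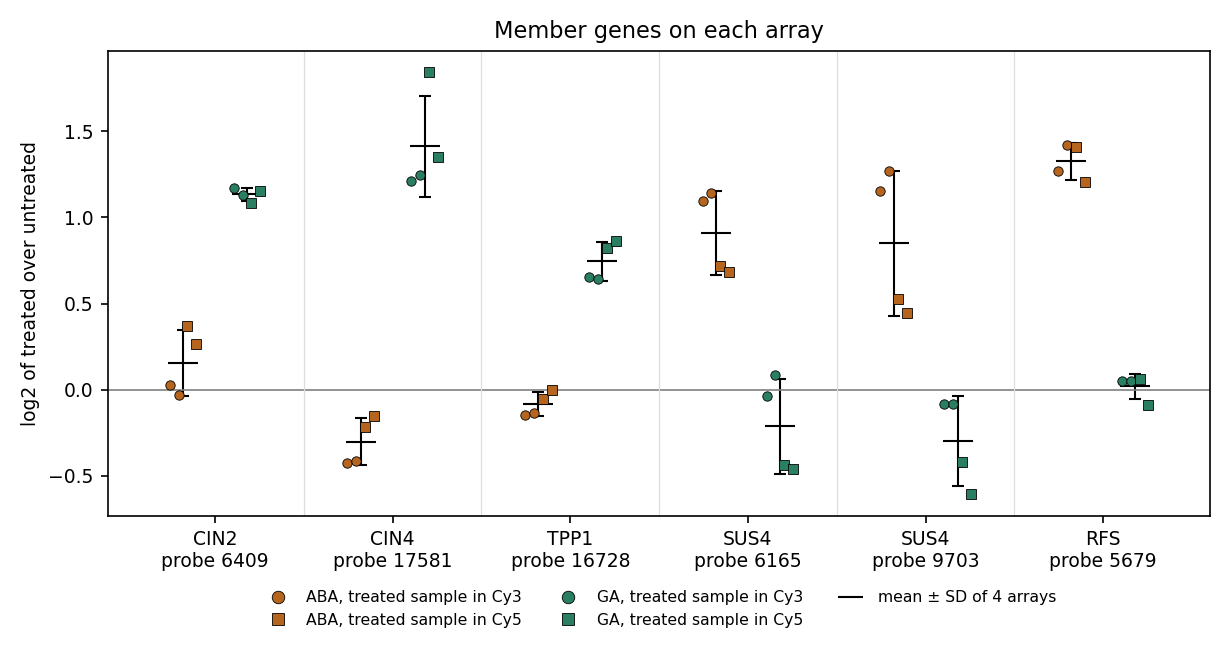
Log2 of treated over untreated for the 6 member probes (horizontal axis) on each of 8 arrays, with ABA in brown, GA in green, circles for arrays with the treated sample in Cy3 and squares for Cy5; black marks are the mean ± SD of 4 arrays. CIN2, CIN4 and TPP1 lie at 0.64 to 1.84 on the GA arrays, while RFS and both probes of SUS4 lie at 0.45 to 1.42 on the ABA arrays.

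The 5 genes fell into a GA side and an ABA side. CIN4 (a mean of 1.41 under GA), CIN2 (1.13) and TPP1 (0.74) were above 0 on every GA array and stayed between −0.42 and 0.37 on the ABA arrays. RFS (a mean of 1.33 under ABA) and SUS4 (0.91 and 0.85 on its probes) were above 0 on every ABA array and stayed between −0.61 and 0.08 on the GA arrays. For all 6 probes the ABA arrays and the GA arrays did not overlap, as for 36.1 percent of all 17782 probes tested. This again is a description. The gap between the nearest arrays of the hormones ran from 0.53 for SUS4 probe 9703 to 1.36 for CIN4. In a fit of all probes with limma, 4 of the 6 probes were called higher and 2 lower under ABA at an adjusted p under 0.05, where 41.8 percent of all probes were called (18.0 percent higher and 23.7 percent lower). Under GA 3 were called higher, 2 lower and 1 not, where 49.0 percent were called (26.2 percent higher and 22.8 percent lower). Nothing is read from these counts, because the genes were chosen on these values. Without the dye term no member was called lower under either hormone, and 3 were called higher under each. In a mixed tissue a change in the share of a cell type and a change of RNA per cell cannot be told apart.

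Cell wall invertases cut sucrose into glucose and fructose in the wall, which keeps sucrose flowing into growing tissue. CIN2, known as GIF1 for its role in filling the rice grain, was at 1.17, 1.13, 1.08 and 1.15 on GA arrays 04, 05, 07 and 08. These 4 values lie close together in both dye orientations, with a mean of 1.13 ± 0.04 (2.19-fold). On ABA arrays 24, 20, 19 and 23 CIN2 was at 0.03, −0.03, 0.37 and 0.27. Its ABA values thus split by dye orientation, near 0 with the treated sample in Cy3 and 0.32 on average with it in Cy5. Their mean was 0.16 ± 0.19. Under GA the same orientations averaged 1.15 and 1.12. Within ABA the dye and other differences between the arrays cannot be told apart. The spread over the ABA arrays is larger than that mean, which was 0.10 without array 19.

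CIN4 had the largest GA value among the members. It was at 1.21, 1.25, 1.84 and 1.35 on GA arrays 04, 05, 07 and 08, a mean of 1.41 ± 0.29 (2.66-fold), with array 07 well above the others. Ranked from the highest GA value among the 17782 probes, CIN4 stood at 91 and CIN2 at 177. With the ratio turned these would be places 91 and 177 from the lowest value. On ABA arrays 24, 20, 19 and 23 CIN4 was at −0.42, −0.41, −0.21 and −0.15. All 4 ABA arrays were below 0, with a mean of −0.30 ± 0.14. The ABA mean of CIN2 was above 0 (0.16 ± 0.19), but its ABA arrays lay on both sides of 0. No difference of sign between the invertases is therefore read from the ABA arrays. Their GA means had the same sign. ABA minus GA was −1.71 for CIN4 and −0.98 for CIN2.

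Of the 7 cell wall invertase genes in the annotation, 3 have a probe. The third, CIN7, passed under neither hormone: its mean was −0.03 ± 0.17 under ABA (adjusted p = 0.554) and 0.06 ± 0.08 under GA (adjusted p = 0.242). In the annotation CIN2 lies next to CIN3 on chromosome 4, and CIN3 has no probe that the probe annotation assigns to it alone. CIN4 lies on chromosome 1. Neutral invertases, which cut sucrose inside the cell, moved little, with NIN3 rising by 0.11 ± 0.04 under GA (adjusted p = 0.0227), a call that was lost when array 04, 05 or 08 was left out (0.09 to 0.10, adjusted p = 0.0657 to 0.119) or the dye term dropped (adjusted p = 0.0779). NIN1 did not pass under ABA (0.07) or GA (−0.06).

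**Figure D2:**
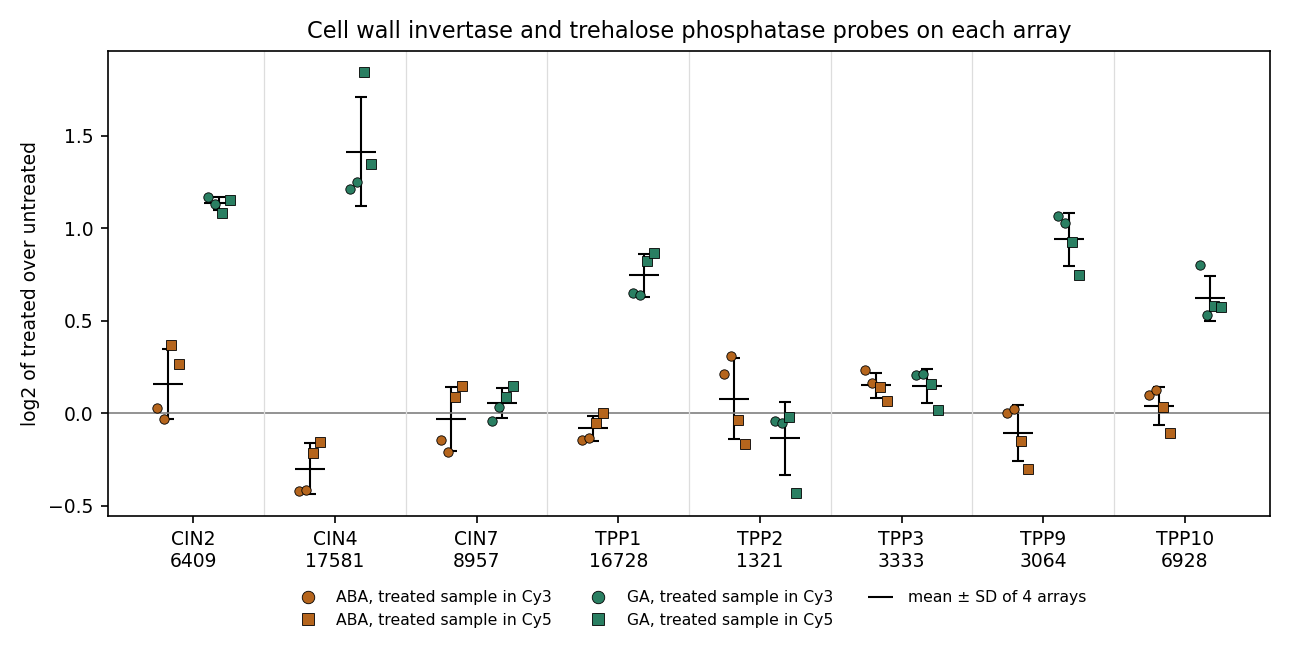
Log2 of treated over untreated for the 3 cell wall invertase and 5 trehalose phosphatase probes on each of 8 arrays, with ABA in brown, GA in green, circles and squares for the dye of the treated sample and black marks for the mean ± SD of 4 arrays. CIN2, CIN4, TPP1, TPP9 and TPP10 have all 4 GA arrays at 0.53 or above, while CIN7, TPP2 and TPP3 stay between −0.43 and 0.31 on all 8.

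Sucrose synthase splits sucrose with UDP into UDP-glucose and fructose, which feeds cell wall and starch synthesis. SUS4 probe 6165 was at 1.09, 1.14, 0.72 and 0.68 on ABA arrays 24, 20, 19 and 23, a mean of 0.91 ± 0.24 (1.88-fold). Probe 9703 was at 1.15, 1.27, 0.53 and 0.45 on the same arrays, a mean of 0.85 ± 0.42 (1.80-fold). Both probes were higher with the treated sample in Cy3 than in Cy5, by 1.12 against 0.70 and by 1.21 against 0.49, and the lowest of the 8 values was 0.45.

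Under GA, SUS4 probe 6165 was at −0.04, 0.08, −0.43 and −0.46 on arrays 04, 05, 07 and 08, and probe 9703 at −0.08, −0.08, −0.42 and −0.61. The arrays with the treated sample in Cy3 lay near 0 and the others below it, for means of −0.21 ± 0.28 and −0.30 ± 0.26. Over the 8 arrays the probes differed by a root mean square of 0.14, so they carry the same dye pattern and count as 1 gene.

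The other sucrose synthases were called on both sides too. In the annotation 7 are named, and 6 have 9 probes. Among the 7 probes of SUS1, SUS2, SUS3, SUS5 and SUS6, 1 rose and 3 fell under ABA with a median of −0.07, and 5 rose and none fell under GA with a median of 0.21 (limma, with 0 lower at an unadjusted p under 0.05). That is 14.3 percent up and 42.9 percent down under ABA, where 18.0 and 23.7 percent of all probes were, and 71.4 percent up under GA, where 26.2 percent were. These percentages are of probes, and the 7 probes stand for 5 genes. The 3 falls were of SUS1 and both probes of SUS2. The 5 rises held both probes of SUS2 and only 1 of the probes of SUS6. Over all probes tested the medians were −0.00459 and −0.00504. SUS1, SUS3 and SUS5 are named here after their values were seen.

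SUS3 was the sucrose synthase that rose with SUS4 under ABA. It was at 0.75, 1.23, 1.06 and 0.72 on ABA arrays 24, 20, 19 and 23, a rise of 0.94 ± 0.25 (1.92-fold, limma adjusted p = 1.32e-05). Unlike SUS4, its high and low ABA arrays did not follow the dye. Under GA it stayed at −0.06 to 0.03, with a mean of 0.01 ± 0.04 (adjusted p = 0.949).

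SUS2 and SUS1 went the other way. SUS2 probe 2266 was at −0.53, −0.55, −0.90 and −0.99 on ABA arrays 24, 20, 19 and 23 and at 0.96, 0.99, 0.66 and 0.51 on GA arrays 04, 05, 07 and 08. Its fall under ABA (−0.74 ± 0.23) had a limma adjusted p of 3.05e-07 and its rise under GA (0.78 ± 0.24) one of 1.40e-07, and the hormones did not overlap in either dye orientation. The other probe of SUS2, 19632, gave −0.51 ± 0.09 and 0.70 ± 0.08. SUS1 fell by 0.23 on the log2 scale under ABA (SD 0.11, adjusted p = 7.06e-04) and rose by 0.66 ± 0.08 under GA (adjusted p = 4.07e-07).

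The remaining isoforms moved less. SUS5 rose under GA by 0.21 ± 0.09 (adjusted p = 0.00122) and was at −0.00271 under ABA. Of the 2 probes of SUS6, 1 was called under GA (0.17 ± 0.22, adjusted p = 0.0397) and the other was not (−0.10 ± 0.24), so the gene has no agreed value. The limma test of ABA minus GA gave −0.89 for SUS1 (adjusted p = 5.57e-07), −1.52 for SUS2 probe 2266 (adjusted p = 1.54e-08) and 0.93 for SUS3 (adjusted p = 8.61e-05), where 50.0 percent of all probes passed that test. For SUS4 the same difference was 1.12 and 1.15.

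**Figure D3:**
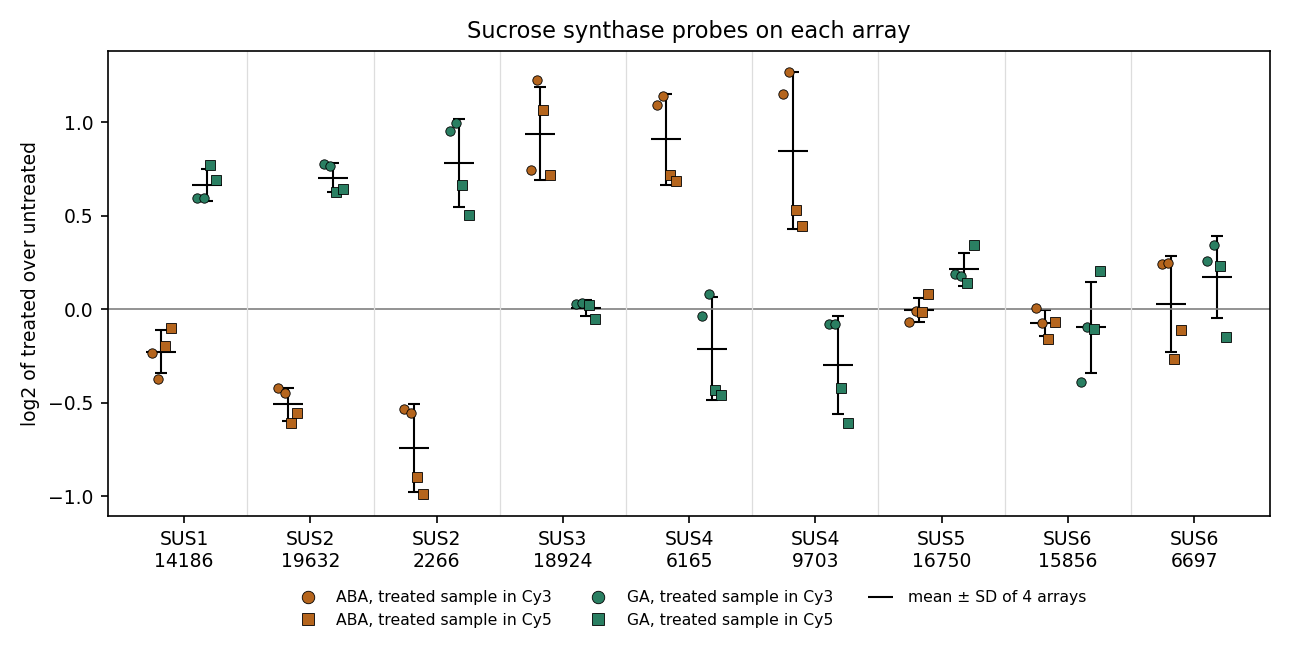
Log2 of treated over untreated for the 9 sucrose synthase probes on each of 8 arrays, with ABA in brown, GA in green, circles and squares for the dye of the treated sample and black marks for the mean ± SD of 4 arrays. SUS3 and SUS4 lie at 0.45 to 1.27 on the ABA arrays and near or below 0 on the GA arrays, while SUS1 and SUS2 lie at 0.51 to 0.99 on the GA arrays and below 0 on the ABA arrays.

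Raffinose synthase moves galactose from galactinol onto sucrose and so makes raffinose, a sugar of dry seeds. RFS was at 1.27, 1.42, 1.41 and 1.20 on ABA arrays 24, 20, 19 and 23. The values did not separate by dye, and gave a mean of 1.33 ± 0.11 (2.51-fold). This was the largest ABA value of the 45 probes in the lists of sugar enzymes, and 97 from the top among the 17782 probes. With the ratio turned it would be the lowest of the 45 and 97 from the bottom. Under GA, RFS was at 0.05, 0.05, 0.06 and −0.09 on arrays 04, 05, 07 and 08, a mean of 0.02 ± 0.07 with values on both sides of 0. RFS lies on chromosome 1 and was the only gene of the list of galactinol, raffinose and stachyose synthases and alpha-galactosidases that the annotation names, so the step before it could not be set beside it.

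Trehalose phosphatases take the phosphate off trehalose 6-phosphate and so lower the sucrose signal. TPP1 was at 0.65, 0.64, 0.82 and 0.86 on GA arrays 04, 05, 07 and 08, a mean of 0.74 ± 0.12 (1.68-fold). Every GA array was above every ABA array, which lay at −0.14, −0.13, −0.05 and 0.00 on arrays 24, 20, 19 and 23. The ABA mean was −0.08 ± 0.07. No trehalose phosphate synthase or trehalase gene is named in the annotation under the symbols searched.

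Of the 9 trehalose phosphatase genes in the annotation, 5 have a probe. Of the 4 beside TPP1, 3 rose and none fell under GA with a median of 0.39, and 1 rose and none fell under ABA with a median of 0.06. At limma's unadjusted p under 0.05, 0 of these 4 were lower under GA and 1, TPP9, was lower under ABA. The 3 of 4 up under GA stand beside the 26.2 percent of all probes, and the 1 of 4 called under ABA beside 41.8 percent. TPP9 was at 1.06, 1.03, 0.92 and 0.74 on GA arrays 04, 05, 07 and 08. It rose by 0.94 ± 0.14 (1.92-fold, adjusted p = 8.80e-08), more than TPP1, and was at −0.11 ± 0.15 under ABA (adjusted p = 0.0526). TPP10, named after its values were seen, rose by 0.62 ± 0.12 under GA (adjusted p = 3.51e-06) and was at 0.04 ± 0.10 under ABA. TPP3 rose by about the same amount under both hormones (0.15 ± 0.07 and 0.15 ± 0.09, adjusted p = 0.00575 and 0.00486). TPP2 did not pass under ABA (0.08) or GA (−0.14).

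**Figure D4:**
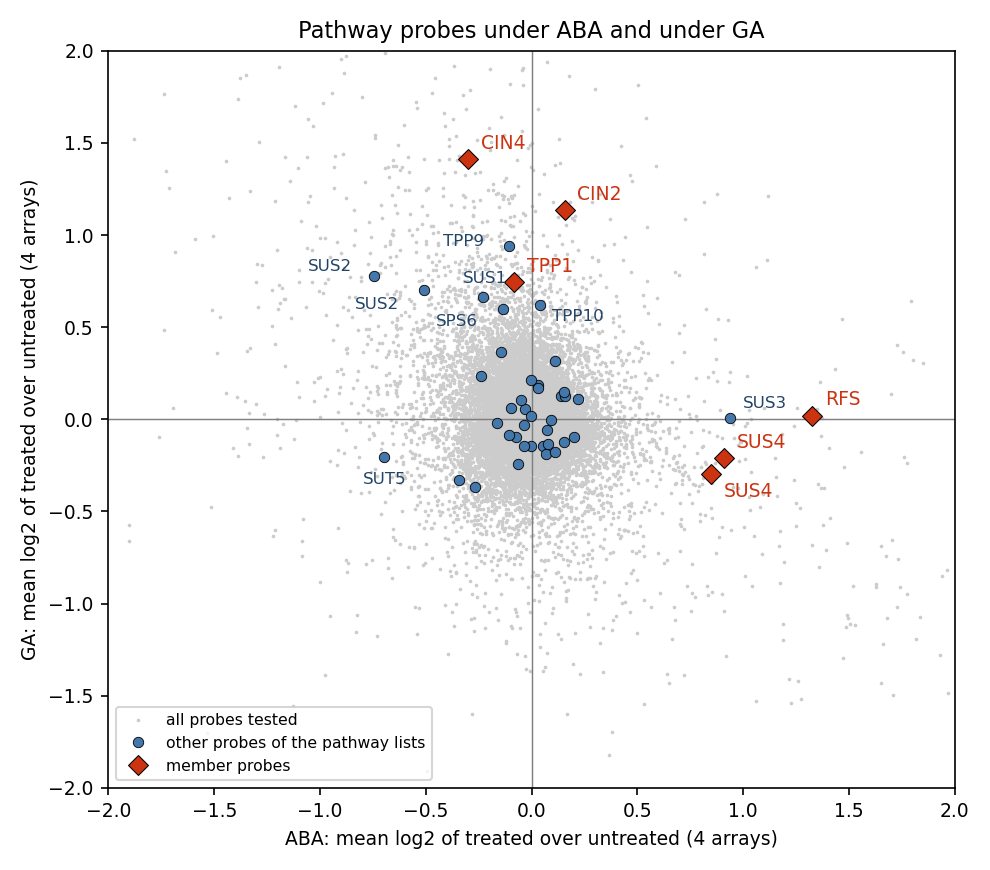
Mean log2 of treated over untreated under ABA (horizontal axis) and under GA (vertical axis) for the 6 member probes in red, the 39 other probes of the sugar enzyme lists in blue and all probes tested in grey, of which 75 lie beyond the axes. CIN2, CIN4 and TPP1 lie high on the GA axis near SUS1, SUS2, SPS6, TPP9 and TPP10, and RFS and SUS4 lie to the right on the ABA axis near SUS3.

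The wider pathway was counted over 39 genes and 45 probes in 10 classes. Of the 39 probes that belong to no member, 8 rose and 10 fell under ABA, and 16 rose and 9 fell under GA. Under ABA these are 20.5 percent up and 25.6 percent down, near the 18.0 and 23.7 percent of all probes. Under GA they are 41.0 percent up and 23.1 percent down, beside 26.2 and 22.8 percent. Their median size of change was 0.11 under ABA and 0.15 under GA, against 0.0937 and 0.113 over all probes. Without the dye term the calls lower in the 45 probes went from 12 to 6 under ABA and from 11 to 6 under GA.

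Genes that make sucrose gave 1 rise and 2 falls in 6 probes under ABA, and 1 rise and 1 fall under GA. That is 50.0 percent called under ABA and 33.3 percent under GA, beside 41.8 and 49.0 percent of all probes. SPS6, a sucrose phosphate synthase of the main route to sucrose, rose by 0.60 ± 0.11 under GA (adjusted p = 2.20e-06) and fell by 0.14 on the log2 scale under ABA (SD 0.04, adjusted p = 0.0238). The ABA call was lost when array 24 or 20 was left out (−0.11 each time, adjusted p = 0.138 and 0.117) or the dye term dropped (adjusted p = 0.0617). SPS2 fell by 0.15 on the log2 scale under GA on probe 8471 (adjusted p = 0.00900), which was lost when array 04 was left out (−0.13, adjusted p = 0.0576) or the dye term dropped (adjusted p = 0.0564). The other SPS2 probe, 17641, was at −0.15 ± 0.13 under GA and was not called (adjusted p = 0.0519). The sucrose phosphatase SPP2 rose by 0.22 ± 0.03 under ABA (adjusted p = 0.00252), and SPP1, of the same family, fell by 0.16 on the log2 scale (SD 0.29, adjusted p = 0.0156) but did not pass without the dye term (adjusted p = 0.391). Nor did SPP1 pass without array 24 or 23 (−0.16 and −0.13, adjusted p = 0.0594 and 0.0807).

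Sucrose transporters, which carry sucrose across membranes, gave 2 rises and 2 falls under ABA, and 1 rise and 3 falls under GA, in 4 probes. All 4 were thus called under each hormone, beside 41.8 percent of all probes under ABA and 49.0 percent under GA. SUT5 was at −0.70, −0.75, −0.71 and −0.63 on ABA arrays 24, 20, 19 and 23. It fell by 0.70 on the log2 scale (SD 0.05, adjusted p = 6.62e-07), with all 4 arrays close together, and fell by 0.20 under GA (SD 0.07, adjusted p = 0.00116). SUT4, which the annotation also lists as SUT2, rose by 0.32 ± 0.03 under GA (adjusted p = 4.40e-05). Its rise under ABA was 0.11 ± 0.11 (adjusted p = 0.0267). That call was lost when array 24, 20 or 19 was left out (adjusted p = 0.102 to 0.137) or the dye term dropped (adjusted p = 0.124). The gene listed as SUT2 alone fell by 0.35 under ABA (SD 0.41, adjusted p = 0.00125) and by 0.33 under GA (SD 0.31, adjusted p = 0.00110), calls that did not hold without the dye term (adjusted p = 0.138 for ABA, 0.129 for GA).

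Kinases that take in the split sugars moved by at most 0.37 under either hormone. Among 9 hexokinase probes, 2 rose and 2 fell under ABA, and 3 rose and 4 fell under GA. That is 44.4 percent called under ABA and 77.8 percent under GA, beside 41.8 and 49.0 percent of all probes. HXK5 rose by 0.37 ± 0.10 under GA (adjusted p = 4.82e-05) and was at −0.15 ± 0.01 under ABA (adjusted p = 0.0149). Its ABA call was lost when array 24, 19 or 23 was left out (adjusted p = 0.0563 to 0.0604). The gene listed as HXK6 and HXK7 fell under ABA (−0.27 ± 0.08, adjusted p = 8.21e-05) and GA (−0.37 ± 0.02, adjusted p = 5.85e-06). The gene listed as HXK5 and HXK9 rose by 0.16 ± 0.07 under ABA (adjusted p = 0.00494) and by 0.13 ± 0.05 under GA (adjusted p = 0.0114). Both fructokinases rose under GA, as did 26.2 percent of all probes. FRK1 rose by 0.24 ± 0.20 (adjusted p = 4.31e-04) and FRK2 by 0.19 ± 0.17 (adjusted p = 0.0198). The GA values of FRK1 averaged 0.40 with the treated sample in Cy3 and 0.07 in Cy5, and its limma adjusted p was 0.0466 without the dye term. Under ABA, where 23.7 percent of all probes fell, FRK1 fell (−0.24 ± 0.16, adjusted p = 6.46e-04). Without the dye term the rise of FRK2 (adjusted p = 0.121) and the ABA fall of FRK1 (adjusted p = 0.0599) did not pass. The rise of FRK2 was also not called without GA array 04 (0.19, adjusted p = 0.0632) or with each hormone fitted on its own arrays (adjusted p = 0.0565), and it was 0.10 without array 07 (adjusted p = 0.0408).

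Of the kinases that sense sugar shortage, 1 of 4 probes rose under ABA (41.8 percent of all probes called) and 1 fell under GA (49.0 percent). Both calls were of SnRK1A probe 8251 (0.11 ± 0.12, adjusted p = 0.00982, and −0.18 ± 0.11, adjusted p = 4.60e-04). The other SnRK1A probe gave −0.10 and 0.06 and passed under neither hormone, so the gene has no agreed direction, and the ABA call was lost when array 24 or 19 was left out (0.10 each time, adjusted p = 0.0725 and 0.0567) or the dye term dropped (adjusted p = 0.190).

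Among named genes that are no members, likeness was measured as the root mean square difference of the log2 ratios over the 8 arrays, for 2465 probes. Nearest to CIN2 were GER3 (0.142), OC-X (0.173) and Osnph1a (0.176), and nearest to CIN4 were OsWNK3 (0.223), OsRR9 (0.224) and AT5 (0.234). Nearest to TPP1 were EXP10 (0.0679), AD709 (0.0703) and HOX4 (0.0896). Nearest to RFS were CML16 (0.109), OrysaZ1 (0.119) and CPS2 (0.160). Both probes of SUS4 had IPK1, ACA5 and HSF05 nearest, at 0.168 to 0.272. Among the members themselves, TPP1 and CIN2 differed by 0.344, RFS and SUS4 by 0.396 and 0.491, and CIN4 and RFS by 1.53. Differences within a side ran up to 0.520, and across the sides from 1.02. With Pearson correlation in place of the difference, none of the 3 genes nearest to each probe was kept, so these names depend on the measure.

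Of the 10 genes that border the members in the annotation, 3 have a probe. LOC4324475, next to CIN4, was at 0.02 under ABA (adjusted p = 0.754) and rose by 0.19 ± 0.14 under GA (adjusted p = 0.00443). INP1, next to TPP1, passed under neither hormone (0.08 and −0.03). LOC4332790, next to SUS4, was at 0.08 under ABA (adjusted p = 0.143) and rose by 0.14 ± 0.04 under GA (adjusted p = 0.0133), where SUS4 was below 0. The neighbours of CIN2 and RFS have no probe that the probe annotation assigns to them alone.

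Markers of tissue that callus can form moved with the hormones in part. Of 4 probes for green tissue, 3 rose under ABA and 1 fell under GA. Over all probes 18.0 percent rose under ABA and 22.8 percent fell under GA. The largest change was 0.46 under ABA (RBCS1 probe 14251, SD 0.52), which split by dye orientation: 0.03 with the treated sample in Cy3 and 0.89 in Cy5. The other RBCS1 probe, 12261, was not called under ABA (0.15, SD 0.33, limma adjusted p = 0.100). The 1 root marker measured, CASP1 of the Casparian strip, was at −0.04 under ABA and rose under GA by 1.81 ± 0.21 (adjusted p = 8.99e-09), beside CIN2, CIN4 and TPP1. None of the 3 seed storage markers passed by limma, at an adjusted p under 0.05, under either hormone, beside RFS and SUS4, and 0 of 3 had an unadjusted p under 0.05. The part of tissue make-up in these results was not tested.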

How the data were processed

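The deposited table holds, per probe and array, a log10 ratio of 2 dyes that the authors normalized with LOWESS (per the labels); base and direction, log10 of Cy5 over Cy3, were assumed. Software settings are not stated in the sources used, background and spot quality are not analysed here, and no read depth applies. Each mean rests on 4 arrays per hormone. The fit estimates the spread of a probe over all 8 arrays, so the adjusted p of each hormone also depends on the arrays of the other. Ratios were turned into log2 (3.32 per log10 unit) and signs turned where the treated sample was in Cy3. Exact zeros were set missing, and annotated probes with at least 3 values per hormone were kept (17782). Genes were named through RefSeq's ASM3414082v1 annotation. limma 3.58.1 (R 4.3.3) fitted an ABA mean, a GA mean and 1 dye term over 8 arrays, with Benjamini-Hochberg adjustment over all probes. The fit was run on data simulated from the same model, with independent arrays and a dye effect shared by both hormones. Such a simulation cannot test these assumptions. Members, lists and alternatives were chosen with earlier results of these data known. In the lists, 5 measured genes whose names are shared with unrelated proteins were left out, and CIN7, also INV1, was counted once. Per class and hormone the 2 called probes with the smallest adjusted p are named, plus SUS1, SUS3, SUS5, TPP10 and the tissue markers CASP1 and RBCS1, the 3 non-member genes nearest to each member, and bordering genes.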

Additional observations from a re-analysis of the deposited data

Results flagged for a closer look

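With 4 arrays per group, 3 of 58 groups had 1 array far from the other 3. Chance gives about 1 in 20 for independent groups of 4 values without a dye pattern. Dye bias was left in these values and some genes have more than 1 probe, so nothing is read from that rate. All 3 flags were on GA array 08. RFS was at −0.0867 there and at 0.05 to 0.06 on the other GA arrays, SPP2 at 0.28 against 0.03 to 0.07, and SUS3 at −0.0551 against 0.02 to 0.03. None of the 3 genes was called under GA with or without array 08.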

How the results depend on the processing

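The 6 member probes kept the direction of their ABA, GA and ABA minus GA values in all settings but the turned GA arrays. RFS under GA was the exception, near 0 throughout (−0.01 to 0.05). A call was lost by 19 of 324 values, among which the 18 of RFS under GA had none to lose. Under ABA the call of TPP1 was lost in 9 of 18 settings, that of CIN2 in 6 and that of CIN4 in 2. Under GA each SUS4 probe lost its call in 1 setting. The lowest value in any setting was 1.30 for CIN4, 1.03 for CIN2 and 0.64 for TPP1 under GA. Under ABA it was 1.28 for RFS and 0.80 for SUS4. Most settings leave these means unchanged by construction, such as those of the dye term, the moderation or the arrays of the other hormone. Only the normalizations and leaving out an array of the same hormone could move them. Calls under ABA went from 7430 probes to 4443 without the dye term. With a 2-fold minimum 242 probes were left under ABA, 362 under GA and 820 for ABA minus GA. Leaving out 1 array gave 5540 to 8858 calls under ABA, 7239 to 9662 under GA and 7560 to 9913 for ABA minus GA. In the lists 28 of 192 counts moved by over 1.5 times. Were the sign of the 4 GA arrays turned, ABA minus GA would be 1.29 for CIN2, 1.11 for CIN4, 0.66 for TPP1, 1.35 for RFS and 0.70 and 0.55 for SUS4. Among other probes it would be 0.83 for TPP9, 0.66 for TPP10, 0.44 for SUS1, 0.19 and 0.0357 for SUS2, 0.21 for SUS5, 0.46 for SPS6, −0.18 for SPS2, 0.43 for SUT4, 0.22 for HXK5, −0.63 for HXK6/HXK7, 0.0531 for NIN3, −0.0685 for SnRK1A and 1.77 for CASP1. In the limma test FRK1 (−0.0008, adjusted p = 0.992), SUS2 probe 2266 (adjusted p = 0.594), NIN3 (adjusted p = 0.385) and SnRK1A (adjusted p = 0.184) would lose their calls. HXK5/HXK9 (0.29), SPP1 (−0.185), SPP2 (0.33), SUT2 (−0.68) and TPP3 (0.30) would gain one, as would SPS2 (adjusted p = 0.0187) and HXK6/HXK7 (adjusted p = 2.99e-06). SUT5 (−0.90) and SUS3 (0.95) would keep theirs, and FRK2 (0.22) would still have none. The cause of these moves was not tested, beyond what each setting does by construction. Each value pairs treated and untreated callus on 1 array. ABA arrays were not paired with GA arrays, because the labels do not say whether cultures or untreated RNA were shared between them.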
